A study of Rattus norvegicus with 30 samples.

Results

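The 6 genes described are immediate early genes, which neurons and other cells switch on within minutes of a stimulus: Fos (ENSRNOG00000008015), Egr1 (ENSRNOG00000019422), Nr4a1 (ENSRNOG00000007607), Junb (ENSRNOG00000042838), Arc (ENSRNOG00000043465) and Dusp1 (ENSRNOG00000003977). The rule that chose them lists gene identifiers and uses no values, but it was set with earlier results of these data known. They are 6 of the 32545 identifiers in each count table. Their symbols come from the list of identifiers that chose them, because the count tables hold identifiers only. RNA was sequenced from the cervical spinal cord of 30 adult female Long Evans rats (strain Crl:LE, older than 10 weeks), 1 library per rat, in a screen of the cord segment above a thoracic spinal cord injury. The tissue was the intermediate laminae IV to VII of both sides at C3, a level above the thoracic lesion.

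The 6 groups held 5 rats each. Sham-operated rats were killed 1 or 12 weeks after surgery, and rats with a thoracic spinal cord injury (SCI) 1, 3, 6 or 12 weeks after it. No sham group was taken at 3 or 6 weeks, so those injured groups were set against the mean of both sham groups. All rats were housed alike, were deeply anaesthetised with isoflurane and a further injected agent, and were perfused with cold Ringer solution before the tissue was cut out. The design text states that the 5 rats of a group were picked from a larger number by how good and how plentiful their RNA was, after rats with an inadequate lesion had been left out. The labels contradict each other for 1 library, sham 1 week replicate 1, which is a sham rat by its title and an injured rat by its surgery field. It was kept as sham. Fold changes at 1 week and for the 12 minus 1 week difference are also given after leaving it out and after moving it to the injured group, and those of the other comparisons that use it as ranges.

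Immediate early genes need no new protein for their first transcription, since the factors that start it already sit in the cell and are switched on by calcium and kinase signals. CREB at cAMP response elements and SRF with its partners at CArG boxes are the best known of these factors. In the dorsal and intermediate cord the products, above all Fos, have long been used as markers of neurons that were recently driven, for example by a painful stimulus. Fos and JunB are subunits of the AP-1 transcription factor, Egr1 is a zinc finger transcription factor and Nr4a1 an orphan nuclear receptor. Arc is a protein of the synapse that acts on the removal of glutamate receptors from it, and Dusp1 is a phosphatase that switches off MAP kinases.

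Promoter sequences of 4 of the 6 genes (Egr1, Nr4a1, Junb and Dusp1) were matched in RefSeq on the build GRCr8. The 250 bases before the annotated start are printed for Egr1, Nr4a1 and Junb. They were picked by the correlations between rats given below, none of which passed the adjusted test. Egr1 had the highest r with the mean of the others, and Nr4a1 with Junb the lowest r of a pair. A link between the promoter letters and these correlations was not tested. All 3 are on the plus strand, Egr1 at chr18:26736828-26737077, Nr4a1 at chr7:134259888-134260137 and Junb at chr19:40080876-40081125. Capitals mark the core of the cAMP response element (TGACG, or CGTCA where it lies on the other strand) and, in Egr1, the CArG boxes.
Egr1: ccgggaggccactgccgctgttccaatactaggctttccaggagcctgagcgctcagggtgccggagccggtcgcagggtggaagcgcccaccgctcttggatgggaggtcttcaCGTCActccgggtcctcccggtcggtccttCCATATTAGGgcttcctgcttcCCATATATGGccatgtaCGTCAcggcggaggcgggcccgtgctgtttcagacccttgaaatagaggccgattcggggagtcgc
Nr4a1: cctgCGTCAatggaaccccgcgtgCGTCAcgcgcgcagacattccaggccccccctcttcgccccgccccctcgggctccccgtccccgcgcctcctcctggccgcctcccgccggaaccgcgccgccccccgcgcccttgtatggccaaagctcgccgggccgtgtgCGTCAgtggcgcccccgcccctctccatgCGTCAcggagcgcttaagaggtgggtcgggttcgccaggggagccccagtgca
Junb: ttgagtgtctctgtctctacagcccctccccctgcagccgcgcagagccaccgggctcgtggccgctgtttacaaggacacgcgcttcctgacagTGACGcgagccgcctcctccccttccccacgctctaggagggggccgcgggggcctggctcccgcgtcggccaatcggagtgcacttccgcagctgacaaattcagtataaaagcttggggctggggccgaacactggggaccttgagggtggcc
Both strands were searched for TGACG, for the full element TGACGTCA, which contains that core on each strand, and for the CArG box. Egr1 held 2 core matches, 62 to 66 and 131 to 135 bases before the start, and between them 2 CArG boxes, 74 to 83 and 96 to 105 bases before it. Nr4a1 held 4 core matches and no CArG box. Junb held 1 core match, 151 to 155 bases before the start. Dusp1, at chr10:17184603-17184852 on the plus strand, held the full element once, 117 to 124 bases before the start, and 3 core matches, 2 of them inside that full element. Of all 33469 promoters of the same length, 18.2% held the core at least once, 3.98% held it 2 or more times and 0.173% held it 4 or more times. The full element was in 1.59%, a CArG box in 1.5%, and 2 or more CArG boxes were in 0.0209%. The content of G and C was 63.2% in Egr1, 74.8% in Nr4a1, 66.0% in Junb and 68.8% in Dusp1. Over all promoters its median was 51.2%, and the shares of promoters with a match were not matched for it. A match describes the letters of these windows and shows no binding.

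Library totals ranged from 6459555 to 37410793 counts, and 14801 genes passed the filter on low counts, all 6 immediate early genes among them. Levels are in CPM, counts scaled to 1000000 per library with TMM factors. They are not divided by gene length, so levels are compared between rats and not between genes. Raw counts were lowest for Nr4a1, with 24 to 245 per library, and highest for Fos, with 106 to 644. The highest group mean over the lowest was 1.56 for Egr1, 1.37 for Fos, 1.35 for Junb, 1.24 for Arc, 1.16 for Dusp1 and 1.06 for Nr4a1. In the order of the 6 means, each of the 5 steps between neighbouring groups was within the larger SD of the pair for every gene, as sorted neighbours tend to be, so no neighbours differed beyond their spread. Groups at the ends of the order could differ by more. For Junb, SCI 12 weeks had the highest mean, 11.6 ± 1.09 CPM, and SCI 1 week the lowest, 8.55 ± 0.963 CPM (SD, n = 5 each).

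**Figure D1:**
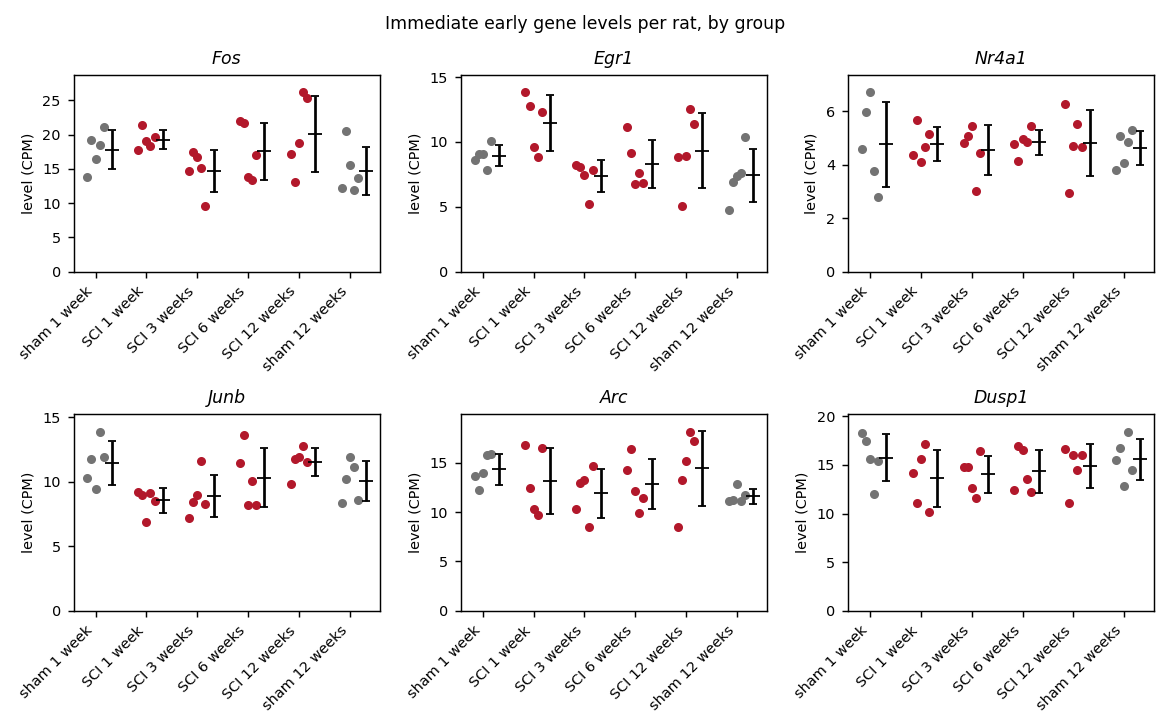
Levels in CPM (vertical axes, from 0) of each gene in each rat; points are rats, grey for sham and red for SCI, and the bars beside them are the mean and SD of 5 rats. With the groups as titled, Junb after 1 week is the only same-week comparison without overlap. The injured rats lie between 6.90 and 9.21 CPM and the sham rats between 9.47 and 13.9 CPM. The sham rat of contradictory label is at 10.3 CPM, so counted as injured it would make the groups overlap.

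One week after surgery, Junb was lower in the injured than in the sham rats, and it came closest of the 6 to the threshold. Its levels were 10.3, 11.8, 9.47, 13.9 and 11.9 CPM in the sham rats and 9.21, 8.97, 6.90, 9.16 and 8.52 CPM in the injured rats. With the groups as titled, all 5 injured rats were below all 5 sham rats, which was true in either direction of 3.51% of all genes tested. That separation depends on the sham library of contradictory label, at 10.3 CPM. Counted as injured, it would lie above the sham rat at 9.47 CPM and the groups would overlap. The means were 11.5 ± 1.69 and 8.55 ± 0.963 CPM (SD, n = 5 each), a log2 fold change of -0.42 (SE 0.14, 95% interval -0.69 to -0.14). In edgeR's quasi-likelihood test the unadjusted p was 0.00454, the gene's rank by p was 438 of 14801, and the Benjamini-Hochberg adjusted p was 0.153, so the difference did not pass the threshold of 0.05. Without the sham library of contradictory label the value was -0.45 (edgeR adjusted p = 0.157), and with that library counted as injured it was -0.40 (edgeR adjusted p = 0.286). In bulk tissue, fewer cells that express a gene and less RNA in each of them cannot be told apart.

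Egr1 was 8.62, 9.08, 9.04, 7.85 and 10.1 CPM in the sham rats of 1 week and 13.8, 12.7, 9.57, 8.85 and 12.3 CPM in the injured rats. Of the injured rats 3 were above all sham rats, and the other 2 were within the sham range. The log2 fold change was 0.36 (SE 0.18, edgeR adjusted p = 0.365), 0.34 without the library of contradictory label and 0.28 with it counted as injured. With the groups as titled, Junb was below the sham range in all 5 injured libraries and Egr1 above it in 3 of them. Neither difference passed the threshold. Fos had a log2 fold change of 0.12, which was 0.04 without that library and -0.04 with it counted as injured. Nr4a1 was at 0.01, Arc at -0.13 and Dusp1 at -0.20. Leaving that library out gave 0.00 for Nr4a1, -0.15 for Arc and -0.14 for Dusp1, and moving it gave -0.02, -0.14 and -0.06. None of the 6 passed the adjusted threshold at 1 week, where 0.358% of all genes did (53 genes, but 1 gene without the library of contradictory label and 0 with it counted as injured). At an unadjusted p under 0.05, Junb was the 1 gene of the 6, against 13.9% of all genes.

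At 12 weeks after surgery, 5 of the 6 genes had a positive fold change in the injured rats, as did 50.9% of all genes, and none passed the test. Fos was 17.1, 13.0, 18.8, 26.1 and 25.3 CPM in the injured rats and 12.2, 20.5, 15.6, 11.9 and 13.6 CPM in the sham rats. Replicates 4 and 5 of the injured group were above every sham rat, while the other 3 fell inside the sham range. The means were 20.1 ± 5.58 and 14.7 ± 3.50 CPM (SD, n = 5 each). The log2 fold change was 0.45 (SE 0.18, 95% interval 0.09 to 0.81), with an unadjusted p of 0.0151 and an adjusted p of 0.903 in edgeR's quasi-likelihood test.

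Egr1 and Arc followed with values close to each other. Egr1 was 8.81, 5.03, 8.91, 12.5 and 11.4 CPM in the injured rats of 12 weeks and 4.73, 6.93, 7.40, 7.61 and 10.4 CPM in the sham rats, a log2 fold change of 0.35 (SE 0.18, edgeR adjusted p = 0.903). Arc was 8.47, 13.2, 15.1, 18.1 and 17.2 CPM in the injured and 11.2, 11.2, 12.9, 11.1 and 11.8 CPM in the sham rats, a log2 fold change of 0.33 (SE 0.17, edgeR adjusted p = 0.903). For Arc the 4 higher injured rats were above all sham rats and the remaining rat was below all of them, so the groups overlapped. None of the 6 genes separated the groups at 12 weeks, where 0.946% of all genes did. Replicates 4 and 5 held the highest levels of the injured group for Fos, Egr1 and Arc alike. Junb was at 0.21, Nr4a1 at 0.07 and Dusp1 at -0.06. The median of the 6 log2 fold changes was 0.27, beside 0.00 over all genes tested. No gene of the whole table passed the adjusted threshold at 12 weeks (0.0%) in edgeR, DESeq2 or limma-voom. At an unadjusted p under 0.05 there was 1 of the 6, Fos, against 5.3% of all genes.

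The injury effect at 12 weeks minus that at 1 week was tested as a contrast of its own. It was 0.62 for Junb on the log2 scale (SE 0.19, 95% interval 0.23 to 1.02), because the injured rats were below their sham rats at 1 week and had the higher mean at 12 weeks. Junb ranked 151 of 14801 by p in this edgeR contrast, with an unadjusted p of 0.00294 and an adjusted p of 0.289. Junb was 9.82, 11.8, 11.9, 12.8 and 11.5 CPM in the injured rats of 12 weeks and 8.37, 10.2, 11.9, 11.1 and 8.57 CPM in the sham rats, so these groups overlapped. Arc had a difference of 0.46, Fos of 0.33, Dusp1 of 0.15, Nr4a1 of 0.06 and Egr1 of -0.01. Without the library of contradictory label the values were 0.66 for Junb (edgeR adjusted p = 0.258), 0.48 for Arc, 0.42 for Fos, 0.09 for Dusp1, 0.07 for Nr4a1 and 0.01 for Egr1. With it counted as injured they were 0.61 for Junb (edgeR adjusted p = 0.393), 0.47 for Arc, 0.49 for Fos, 0.00 for Dusp1, 0.08 for Nr4a1 and 0.07 for Egr1. None of the 6 and 0.0% of all genes passed the adjusted threshold for this contrast in edgeR, and at an unadjusted p under 0.05 there was 1 of the 6, Junb, against 8.38%. DESeq2 called 7 genes here and limma-voom 3, none of the 6 among them.

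**Figure D2:**
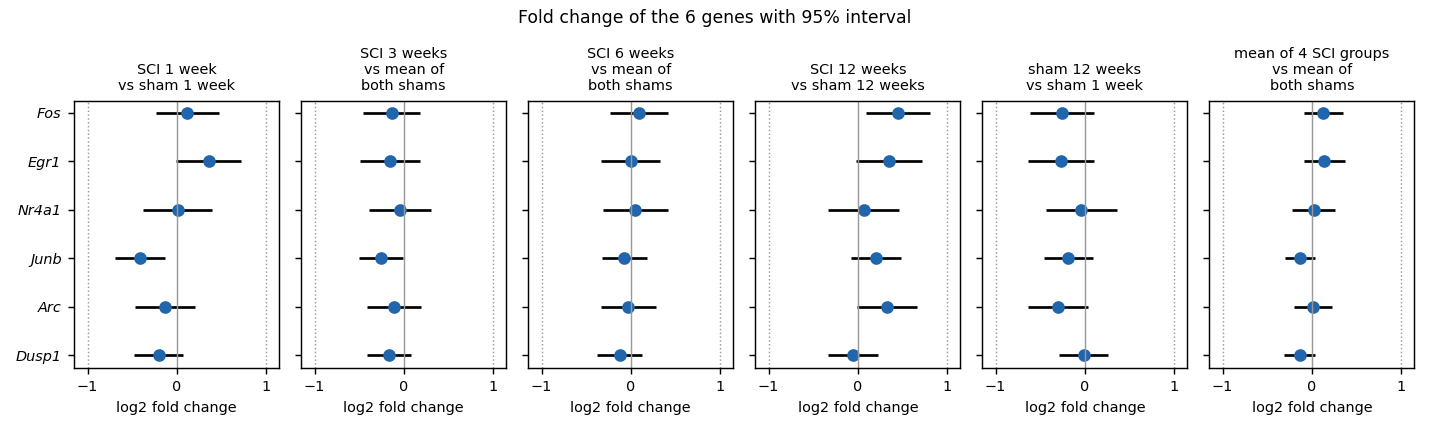
Log2 fold changes (horizontal axes, points) of the 6 genes with their 95% intervals (bars) from edgeR in 6 comparisons; dotted lines mark a 2-fold difference. Every interval lies within 2-fold, and those of Junb at 1 and 3 weeks and of Fos at 12 weeks lie on 1 side of 0.

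At 3 weeks all 6 genes had a negative fold change in the injured rats, while 51.0% of all genes had a positive one. But that of Nr4a1 was 0.01 with library depth as a covariate and that of Arc was 0.04 against sham 12 weeks alone. The log2 fold changes ran from -0.25 for Junb to -0.04 for Nr4a1, with a median of -0.15 beside 0.00 over all genes. Junb was 7.20, 8.45, 8.95, 11.6 and 8.29 CPM in the injured rats of 3 weeks, within or below the range of 8.37 to 13.9 CPM in the 10 sham rats. Its unadjusted p in edgeR was 0.0454 and its adjusted p 0.695, and it was the 1 gene of the 6 under an unadjusted 0.05, against 7.11% of all genes. At 6 weeks the 6 values lay between -0.13 for Dusp1 and 0.09 for Fos. With the library of contradictory label left out or moved, the values ran from -0.27 to -0.05 at 3 weeks and from -0.10 to 0.05 at 6 weeks, either way. None of the 6 was called at 3 or 6 weeks, where 0.0% of all genes were called at each time by edgeR, 0 by limma-voom, and 1 and 0 by DESeq2. At 6 weeks DESeq2 gave the 6 genes no adjusted p. At 6 weeks none of the 6 had an unadjusted p under 0.05, against 8.22% of all genes.

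Between the sham groups, all 6 genes had a negative log2 fold change of 12 weeks against 1 week, while 48.9% of all genes had a positive one. With library depth as a covariate that of Nr4a1 was 0.03 and that of Dusp1 0.02. The values ran from -0.31 for Arc (SE 0.17, edgeR adjusted p = 0.65) to -0.01 for Dusp1. Without the library of contradictory label they ran from -0.34 for Fos to 0.05 for Dusp1, and with it counted as injured from -0.34 to 0.04. None of the 6 passed the adjusted threshold and 0.0% of all genes did in edgeR. DESeq2 called 7 genes but gave the 6 no adjusted p here, and limma-voom called 0. None of the 6 reached an unadjusted p under 0.05, against 8.24% of all genes. The sham rats of 12 weeks serve as controls in the 12 week comparison too, so these values and the higher means of the injured rats at 12 weeks share the same libraries. With all 20 injured rats set against all 10 sham rats, each time weighted equally, the 6 log2 fold changes lay between -0.14 and 0.14 and the smallest edgeR adjusted p was 0.497. They lay between -0.15 and 0.13 without the library of contradictory label and between -0.14 and 0.12 with it counted as injured. There 0.0% of all genes passed the adjusted threshold in edgeR, with 12 called by DESeq2 and 0 by limma-voom, and 13.0% against none of the 6 had an unadjusted p under 0.05.

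A joint edgeR test of any difference among the 6 groups called 0.027% of all genes and none of the 6. The unadjusted p was 0.0099 for Egr1 (adjusted p = 0.311) and 0.0158 for Junb (adjusted p = 0.353), 2 of the 6 under 0.05 against 11.3% of all genes. The share of a gene's variance in log2 CPM that lay between groups was 40.2% for Junb, 34.6% for Egr1 and 28.4% for Fos. It was 15.1% for Arc, 12.0% for Dusp1 and 1.65% for Nr4a1, whose group means hardly differed. The share is not corrected for the number of groups, so it lies above 0 even where groups do not differ. Its value over all genes was not computed, so these shares by themselves show no group effect. With the groups as titled, the data bound the size of what could have been missed. In each comparison with sham rats, and between the sham groups, the 95% intervals of all 6 genes excluded a 2-fold difference. Among all genes this held for 89.9% at 1 week, 92.3% at 3 weeks, 91.1% at 6 weeks, 90.0% at 12 weeks, 90.3% between the sham groups and 97.3% over all injured rats. For the 12 minus 1 week difference it held for 5 of the 6, all but Junb, and for 81.4% of all genes. A 1.5-fold difference was excluded for 4 of the 6 genes at 1 week (75.0% of all genes), and for 3 of the 6 at 12 weeks (76.3%) and between the sham groups (75.8%). It was excluded for all 6 at 3 weeks (79.4% of all genes), at 6 weeks (77.9%) and over all injured rats (88.2%). The intervals at 3 and 6 weeks hold for the mean of both sham groups as reference. Junb at 3 weeks was -0.35 against sham 1 week alone and -0.16 against sham 12 weeks alone. No intervals were computed against 1 sham group alone, or with the library of contradictory label left out or moved.

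Between rats of the same group the immediate early genes varied more than most genes. The within-group SD of log2 CPM was 0.33 for Egr1, 0.32 for Nr4a1, 0.31 for Fos, 0.30 for Arc, 0.24 for Dusp1 and 0.22 for Junb, beside a median of 0.18 over all genes tested. From 60.6% of all genes (for Junb) to 76.7% (for Egr1) had a lower SD. With no filter on low counts these shares were lower, 49.4% for Junb and 65.3% for Egr1. Counting error alone would give 32.8% of the within-group variance of Nr4a1 and 31.7% of that of Junb, but 9.71% of that of Fos. Low counts also raise the SD of a gene, so level and spread are linked. The biological coefficient of variation was therefore also set against the trend for genes of the same level. It was above the trend for Fos (18.6% against 12.6%), Arc (17.4% against 13.9%), Egr1 (18.5% against 15.8%) and Dusp1 (14.1% against 13.4%). It was below the trend for Nr4a1 (19.0% against 19.8%) and Junb (13.5% against 15.2%).

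**Figure D3:**
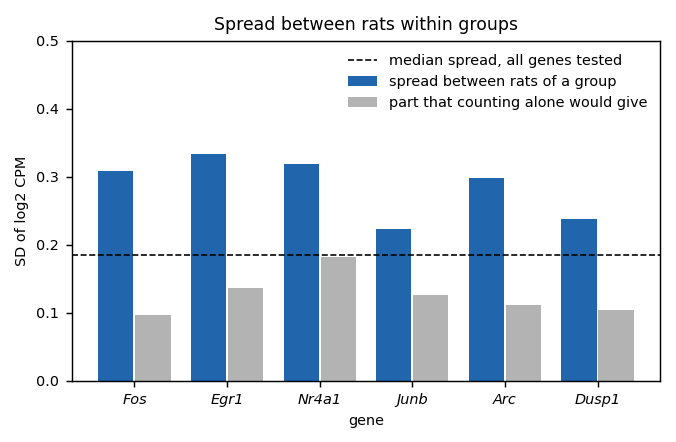
Within-group SD of log2 CPM (vertical axis, from 0) over 30 rats for each gene (blue bars), with the SD that counting alone would give (grey bars). The dashed line is the median of all 14801 genes, 0.18, which all 6 blue bars exceed.

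Whether the genes moved together was measured over the 30 rats, after the mean of each group had been subtracted from log2 CPM. Of the 15 pairs, 10 had a positive Pearson r, and the values ran from -0.39 to 0.52 with a median of 0.14. The median size of r without its sign was 0.25 for these pairs, beside 0.17 between a member and all genes. Egr1 and Arc had the highest, with r = 0.52 (permutation p = 0.0155) and Spearman's rho = 0.67 (permutation p = 0.00047). It was positive in 5 of 6 groups, was 0.62 without the 2 rats farthest in Egr1, and stayed between 0.46 and 0.61 when each rat was left out. With the replicate numbers as a block it was 0.49, below the 0.57 of Fos and Egr1. In the covariate test, edgeR's fit of every gene on the level of 1 member with the groups in the model, Arc ranked 54 of 14800 by p for Egr1 (adjusted p = 0.592) and Egr1 ranked 30 for Arc (adjusted p = 0.815).

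Fos and Egr1 came next, with r = 0.50 (permutation p = 0.0228) and rho = 0.46 (permutation p = 0.0245), positive in 5 of 6 groups. Without SCI 12 weeks replicate 2, which was low in both genes, r was 0.35. Egr1 and Nr4a1 had r = 0.44 (permutation p = 0.0182) but rho = 0.26 (permutation p = 0.174). That relation rests on few rats, since r was 0.23 without the 2 rats farthest in Egr1 and 0.25 without SCI 12 weeks replicate 2 alone. Fos and Junb had r = 0.39 (permutation p = 0.0608) and rho = 0.43 (permutation p = 0.031), and Fos and Arc r = 0.31 (permutation p = 0.164) and rho = 0.40 (permutation p = 0.0451).

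Nr4a1 and Junb were opposed. Their r was -0.39 (permutation p = 0.0344) and rho -0.36 (permutation p = 0.0605), with a negative r in 5 of 6 groups and -0.45 without the 2 rats farthest in Nr4a1. In SCI 3 weeks replicate 4, Junb was highest of its group at 11.6 CPM and Nr4a1 lowest at 3.02 CPM, and without that rat r was -0.27. Dusp1 had no r beyond 0.25 in size with any other member. All p-values of these correlations are two-sided and come from 100000 resamples within groups. They are not adjusted for the 15 pairs. In the covariate test none of the 15 pairs passed in both directions, and the adjusted p over all genes ran from 0.262 to 0.989 in the 30 directions. An unadjusted p under 0.05 was found in 9 of the 30, where 5.28% (for Fos) to 17.2% (for Nr4a1) of all genes had one. Both directions of a pair use the same values, so the 30 are not independent tests.

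**Figure D4:**
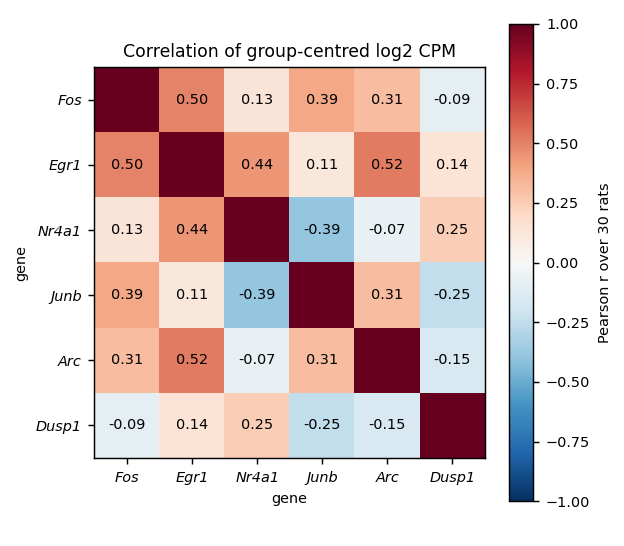
Pearson r of group-centred log2 CPM over 30 rats for each pair of genes, red for positive and blue for negative. Egr1 has its highest values with Arc, Fos and Nr4a1 (0.52, 0.50 and 0.44), and Nr4a1 with Junb is the lowest at -0.39.

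**Figure D5:**
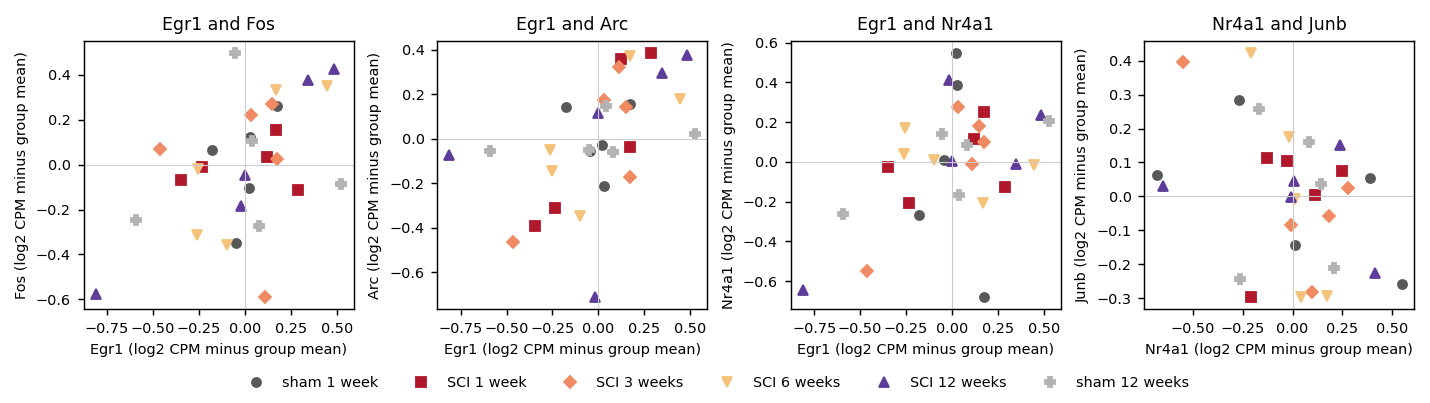
Log2 CPM minus the group mean of 4 pairs of genes, 1 point per rat, with the group given by shape and colour. Rats high in Egr1 tended to be high in Fos and Arc (r = 0.50 and 0.52), whereas 3 rats low in Nr4a1 lie apart from the rest in both panels with that gene.

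Each gene was also set against the mean of the other 5. Egr1 stood out, with r = 0.70, which ranked 11 of the 14796 genes measured against that mean. Fos had 0.47 (rank 470), Arc 0.33, Nr4a1 0.12, Junb 0.06 and Dusp1 -0.04. These values were uneven over the 6 genes. Egr1, Fos and Arc had positive r with one another, as did Egr1 with Nr4a1 and Junb with Fos and Arc. Dusp1 had r near 0 with the mean of the other 5. As no pair passed the covariate test, these values do not show whether the 6 genes form 1 block or several. Library depth was compared with each gene in the same way. With the log2 library total, r lay between -0.14 and 0.20 (permutation p from 0.439 to 0.848). With the share of counts in the 10 most abundant genes of a library, r was -0.39 for Junb (permutation p = 0.0348), with rho = -0.43 (permutation p = 0.0177). For Nr4a1 it was 0.42 (permutation p = 0.0867), with rho = 0.47 (permutation p = 0.0377). The 12 relations with depth were not adjusted for one another. The part of that share in the opposed levels of Nr4a1 and Junb was not tested.

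With the groups in the model and all 30 rats, Nr4a1 was the one member with which other genes passed the covariate test. In edgeR 435 of 14800 genes (2.94%) varied with Nr4a1 at an adjusted p under 0.05, 364 with a positive and 71 with a negative slope, and none of the other 5 members was among them. That count fell to 98 without SCI 3 weeks replicate 4, to 130 without SCI 12 weeks replicate 2 and to 153 without sham 1 week replicate 5. These 3 rats had the lowest Nr4a1 levels of all 30, at 3.02, 2.94 and 2.79 CPM. It was 714 without sham 1 week replicate 3, which had the highest level, 6.71 CPM, and 30 without the 2 rats farthest from the median. For Fos, Egr1, Junb, Arc and Dusp1 as covariate 0.0% of genes passed, with the smallest adjusted p between 0.0659 for Fos and 0.815 for Arc. Under the alternatives these counts were at most 9 for Fos and 25 for Junb, both without the groups in the model, 1 for Dusp1 and 0 for Egr1 and Arc. Fos had up to 4 such genes when 1 rat was left out. An unadjusted p under 0.05 was found in 5.28% of genes for Fos, 7.16% for Egr1, 7.51% for Junb, 6.09% for Arc and 7.85% for Dusp1.

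The genes most like the 6 immediate early genes were sought over all tested genes by the correlation, over the 30 rats, of group-centred log2 CPM with the mean of the 6 members. The closest was ENSRNOG00000016566, with r = 0.80 (0.72 to 0.83 when each rat was left out). Its r was highest with Egr1, at 0.77, and lowest with Junb, at 0.16. ENSRNOG00000011305 followed with r = 0.76, its values running from 0.13 with Nr4a1 to 0.54 with Junb. At the other end stood ENSRNOG00000021263 with r = -0.75 and ENSRNOG00000011856 with r = -0.71, both lowest against Egr1. All 4 had the same sign with each of the 6 members. Among the other 14795 genes, 2.11% had an r over 0.5 with that mean and 1.29% an r under -0.5. These are descriptions of the extremes of many genes measured in shared libraries, and the symbols of the 4 genes are not given here.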

How the data were processed

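RNA was measured in 30 libraries of 1 rat each. Each library has a table of whole-number counts per gene, deposited without normalization. The submitters' processing notes name Rnor_6.0 as the build and, among the authors' tools, STAR 2.5.3a, Trimmomatic, featureCounts, Subread and bcl2fastq 2.19.05. The strand setting was not given in the sources used here, nor was the annotation release. Groups came from the sample titles. The tests ran on the deposited counts in edgeR 4.0.16 under R 4.3.3, by a robust quasi-likelihood fit of the 6 groups in 1 model after TMM scaling and filterByExpr, with Benjamini-Hochberg adjustment over 14801 genes holding 99.941% of counts. Covariate tests added 1 member's log2 CPM (prior count 2). Correlations used scipy 1.17.1 and numpy 2.4.6. The scripts were tested on simulated data.

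Over 60 within-group pairs of libraries, chi-square per degree of freedom was 4.52 to 41.9, so none agreed within sampling noise. The rule named all 6 members and the 2 genes most and 2 least like them. Members and lists were chosen with earlier results of these data known. A list of other pathway genes and lists of cell type markers were not used here, since no table at hand pairs the identifiers with symbols, so the dissected tissue was not checked against its markers. Alternatives included DESeq2 1.42.0, limma 3.58.1, other scaling, no filter, a replicate block, depth as a covariate and each library left out.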

Additional observations from a re-analysis of the deposited data

Results flagged for a closer look

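Egr1 in SCI 3 weeks replicate 4 was 5.23 CPM, below the other 4 rats of its group by more than Dixon's 95% critical value allows, the nearest being 7.43 CPM. It was 1 of 36 sets of 5 rats searched (6 genes in 6 groups), and chance gives about 1 in 20, which is 1.8 sets. The same rat had the lowest Nr4a1 and Arc levels of its group, 3.02 and 8.46 CPM, the lowest Dusp1 level, 11.6 CPM, and the highest Junb level, also 11.6 CPM, while its Fos level, 15.1 CPM, was the median of the group.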

How the results depend on the processing

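The 8 group tests and the pair test were repeated 354 times in all under alternatives, and no member and no pair passed. All 9 were repeated with other scaling and filters, depth as a covariate and each rat left out, the group tests also in DESeq2 and limma-voom, and the pair test in limma-trend. DESeq2 gave the 6 genes no adjusted p at 6 weeks or between the sham groups, so it could not call them there. Of 42 fold changes followed, 25 kept their sign throughout. Junb at 1 week ran from -0.49 to -0.34 without 1 rat (adjusted p 0.097 in DESeq2 to 0.343 over all alternatives), and Fos at 12 weeks from 0.35 to 0.61 (0.56 to 1).

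Replicate numbers showed no pairing of rats on average: over 75 same-numbered pairs, deviations from group means had a mean r of -0.0014 (-0.15 to 0.15). Of 30 libraries, 9 correlated best with their own number, and the count that chance gives was not computed. A mean near 0 does not exclude that some rats of the same number share a source of variation. With a replicate block, Junb at 1 week was -0.42 (edgeR adjusted p = 0.139), the genes varying with Nr4a1 were 271, and Egr1 at 6 weeks turned to 0.0068. The r of Junb and Arc was 0.55 with the block, beside 0.31 in the main fit and 0.53 without SCI 3 weeks replicate 4 alone. That of Egr1 and Junb was 0.30 with the block, beside 0.11.

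Small log2 values changed sign, and the cause was not tested. Egr1 at 6 weeks was 0.00022 with DESeq2 size factors, 0.0059 in DESeq2, 0.0193 with depth as a covariate and 0.132 against sham 12 weeks alone. With depth as a covariate, Nr4a1 was 0.0076 at 3 weeks, 0.0263 between shams and -0.0188 for the 12 minus 1 week difference, and Dusp1 0.0166 between shams. In limma-voom, Arc was -0.0178 over all injured rats and Egr1 0.0444 for the 12 minus 1 week difference. With sham 1 week replicate 1 counted as injured, Fos was -0.0353 and Nr4a1 -0.0156 at 1 week, Dusp1 0.0449 between shams and Egr1 0.0713 for the 12 minus 1 week difference. Against sham 12 weeks alone, Arc was 0.0406 at 3 and 0.124 at 6 weeks and Junb 0.0198 at 6 weeks; against sham 1 week alone, Fos was -0.0408 at 6 weeks.

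Without 1 rat, the signs of these also turned, with ranges at 6 weeks of -0.00011 to 0.174 for Fos, -0.117 to 0.0739 for Egr1, -0.0283 to 0.14 for Nr4a1, -0.188 to 0.00319 for Junb and -0.128 to 0.0537 for Arc. For Nr4a1 the range was -0.139 to 0.187 at 1 week, -0.122 to 0.0813 at 3 weeks, -0.0292 to 0.176 at 12 weeks, -0.18 to 0.144 between shams, -0.0556 to 0.11 over all injured rats and -0.12 to 0.203 for the 12 minus 1 week difference. For Dusp1 the range was -0.117 to 0.0228 at 12 weeks and -0.0921 to 0.0457 between shams. For Arc the range was -0.0179 to 0.0464 over all injured rats. For Egr1 the range was -0.123 to 0.147 for the 12 minus 1 week difference.

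All-gene counts moved more: the 53 genes at 1 week were 0 to 128 without 1 rat, 221 in DESeq2 and 164 in limma-voom, and the 4 of the joint test were 0 to 15, 143 and 17. Counting gives the largest shares of within-group variance for Nr4a1 and Junb, 32.8% and 31.7%. The SD that counting alone would give was largest for Nr4a1, 0.18, then Egr1, 0.14, and was 0.13 for Junb.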
